A study of Abies pinsapo with 12 samples.

Results

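A set of 45 needle transcripts of Spanish fir (Abies pinsapo) stood higher in every library of May 2017 than in any library of August 2016. They were chosen by their own values from 329801 assembled transcripts: the lowest of 6 May values above the highest of 6 August values, a May mean of at least 50, a mean over the 12 libraries under 1000, and a mean log2 difference of at least 1.5. The May and August levels below therefore describe the choice and carry no test. Values are scaled TPM, a length-corrected share of a library multiplied by 1 factor per library, and log2 differences are taken after adding 1. Shaded trees in thinned stands (thinning plus shading), unshaded trees in thinned stands (thinning) and trees in unthinned stands (control) were each sampled in May 2017 and in August 2016 with 2 libraries, so that each month has 6. All were adult trees in the field in southern Spain. Stands were thinned in 2004, a mesh over thinned trees brought light down towards that of the unthinned stands, and each treatment had 3 plots of 100 m2. The labels do not say whether replicates are separate trees or whether trees were pooled, so the p-values below rest on a spread between libraries that could be technical alone. The months come from different years and were each sampled once, so season, year and sampling batch cannot be told apart. In whole needles, fewer cells of a type and less RNA per cell cannot be told apart either.

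Spanish fir is a drought-sensitive conifer of Mediterranean mountains that keeps its needles for several years. In that climate May falls in the season of moist soil, bud break and shoot growth, and August in the dry season, when conifers close their stomata for much of the day. The identifiers come from a de novo assembly: the DN number is a cluster of overlapping contigs, the c number a component within it, and the g number an assembled gene. No names were paired with them, so no function is given, the needle label could not be checked against marker genes, and no pathway list could be applied. The prefix TRINITY_ is left out below.

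The criterion that every May library lie above every August library was met by 1505 transcripts in the table. A May mean of 50 left 187, the upper limit on the mean left 180, and the fold left 45. These members fall in 35 components and 32 DN clusters. In 10 components there were 2 members each, so that 20 of the 45 share a component with another member and may be fragments or near copies of 1 gene. All 45 passed the filter used for testing (10 or more in at least 2 libraries), as did 19726 transcripts in all, and 17 of the 45 had fewer than 2 August libraries at that level. In the month contrast on which they were chosen, 33 of the 45 were called higher in May (limma, Benjamini-Hochberg adjusted p under 0.05), where 7.28% of all tested transcripts were. The 12 members not called all belong to a group of 15 described below. They include the DN3941 and DN7191 pairs, which had the largest log2 differences. Every May library lay above every August library in 4.47% of tested transcripts.

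Among the 45, the May mean ran from 50.1 to 1120 with a median of 109.8, and the August mean from 0.00867 to 112.6 with a median of 10.1. The mean log2 difference, May minus August, ran from 1.51 to 5.74 with a median of 3.21. Over all tested transcripts its median was 0.05. In August 11 members averaged under 1 and 10 were listed at 0 in at least 1 library, while 5 averaged 50 or more. The members thus range from transcripts nearly unlisted in August to transcripts that were abundant in both months.

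**Figure D1:**
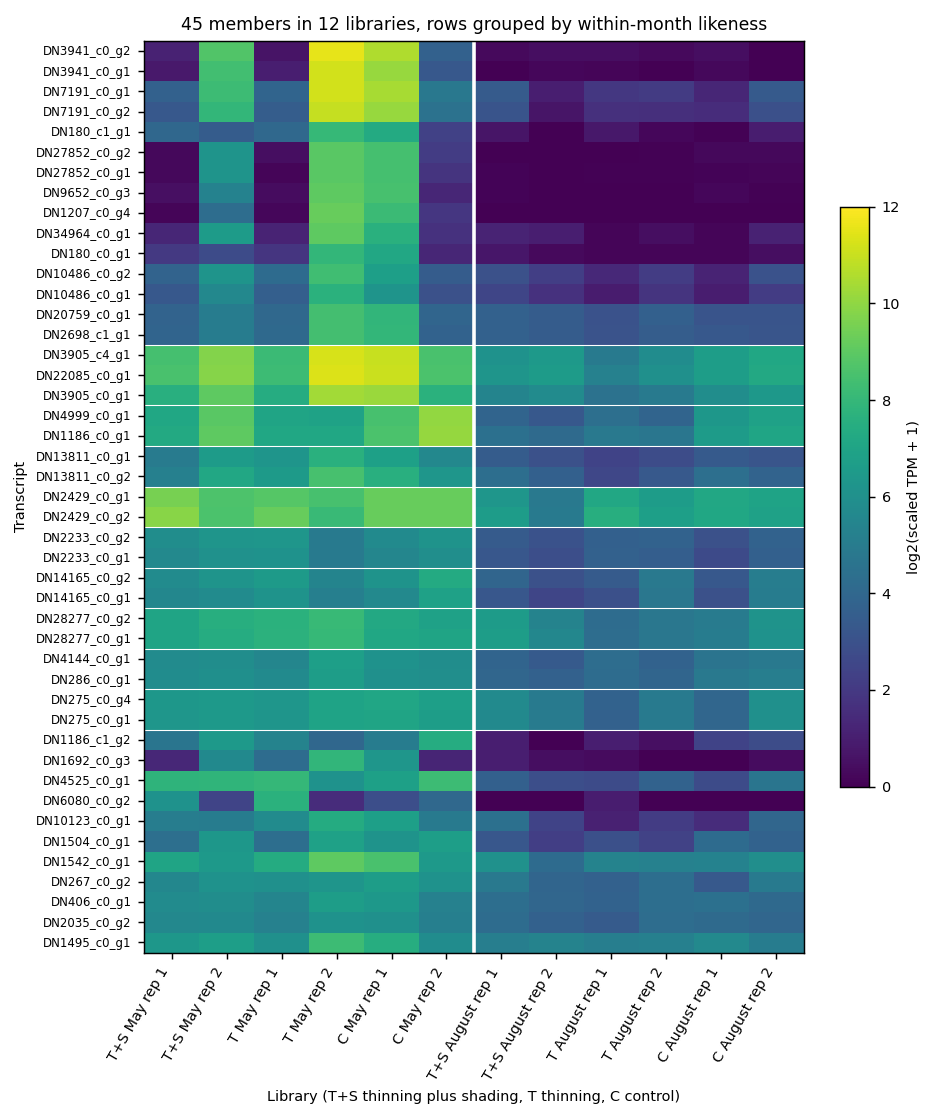
Colour gives log2(scaled TPM + 1) of the 45 members (rows) in the 12 libraries (columns), May left of the white line and August right of it; rows are ordered by likeness of their deviations within each month, and thin lines part the groups of 2 or more. The top 15 rows are bright in thinning May replicate 2 and control May replicate 1 and darker in the other May libraries, while rows further down, such as DN275_c0_g1, are of similar colour across all 6 May libraries.

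Being above August in all 6 May libraries did not mean being abundant in all 6. Only 15 of the 45 were at 50 or more in every May library, 9 were so in just 2 of the 6, and 13 fell under 10 in at least 1. The lowest May value exceeded the highest August value by a ratio of at least 2 in 15 members and by less than 1.5 in 23. In 12 members the gap was under 1 scaled TPM, and in 6 the lowest May value was itself under 1. For DN34964_c0_g1 the gap came to 1.285 in thinning May replicate 1 against 1.284 in thinning plus shading August replicate 1.

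The members together held 0.398% and 0.682% of the summed value of the thinning plus shading May libraries, 0.364% and 2.40% of the thinning May libraries, and 1.60% and 0.587% of the control May libraries. In August they held 0.114% and 0.0762% with thinning plus shading, 0.0811% and 0.0952% with thinning, and 0.120% and 0.177% in control trees. In thinned unshaded trees and in control trees the 2 May libraries stood far apart, and thinning May replicate 2 and control May replicate 1 stood above the other 4. The 7 members of highest May mean, all from the DN3941, DN7191, DN22085 and DN3905 clusters, made up 65.1% of the members' sum in thinning May replicate 2, 60.4% in control May replicate 1 and 45.6% in thinning plus shading May replicate 2. In the other May libraries they made up between 16.0% and 20.8%. With 2 libraries per group, an exact permutation test between treatments cannot fall under 0.05, so none was run on these shares.

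**Figure D2:**
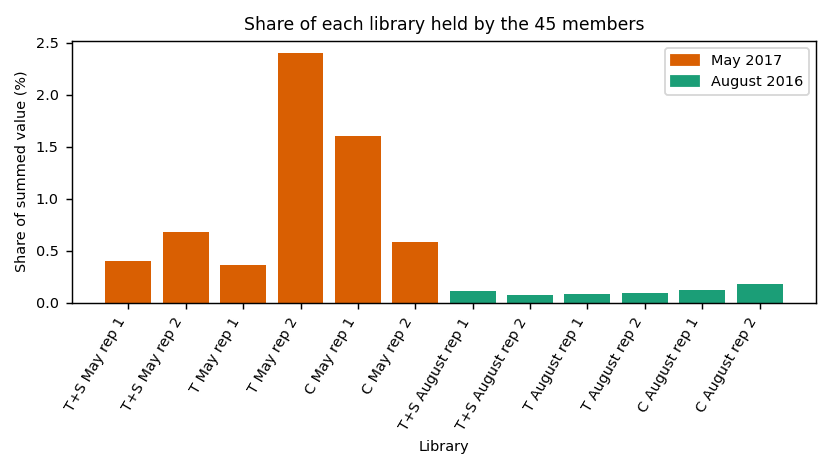
Bars give the share of each library's summed scaled TPM (%) held by the 45 members, with the 6 May libraries (orange) left of the 6 August libraries (green). The bars of thinning May replicate 2 (2.40%) and control May replicate 1 (1.60%) are the tallest, and no August bar exceeds 0.177%.

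Most members followed 1 order of the May libraries. The May mean and fold asked for can be met through a few high libraries, and members of 1 component are not independent. The members' counts set beside shares of tested transcripts here are therefore descriptions. Thinning May replicate 2 was the highest May library in 31 of the 45 members (68.9%), against 31.1% of all tested transcripts. It and control May replicate 1 were the 2 highest May libraries in 31 members, against 24.5% of tested transcripts, and in 25 members thinning plus shading May replicate 2 came next. The lowest May library was thinning May replicate 1 in 12 members, control May replicate 2 in 11, thinning May replicate 2 in 11, thinning plus shading May replicate 1 in 10 and thinning plus shading May replicate 2 in 1. Replicates of a May treatment were more than 4-fold apart in 13 members with thinning plus shading, 22 with thinning and 21 in control trees, against 6.11%, 19.2% and 8.73% of tested transcripts. In August these counts were 3, 0 and 5 members, against 2.40%, 2.08% and 2.94% of tested transcripts. The May libraries also paired across treatments over the whole table. Over all tested transcripts, deviations from the May mean correlated at 0.62 between thinning replicate 2 and control replicate 1 and at 0.51 between thinning replicate 1 and thinning plus shading replicate 1, but at -0.70 between the thinning replicates and -0.50 between the control replicates. Deviations from a shared mean sum to 0, so such correlations lean negative by construction. The labels were followed throughout, and whether they fit the May libraries was not tested, so every May treatment value below rests on them. Thinning May replicate 1 also listed 208032 transcripts above 0, against 81710 to 117855 in the other libraries, and its part in these values was not tested.

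The likeness of members was measured by the correlation of their deviations from the month mean over the 12 libraries, which shares libraries and scaling between members and is given as a description. For members near 0 in August, r rests almost wholly on the May libraries: DN1207_c0_g4 had an SD of 3.96 in May and 0.019 in August. Linking members at r of 0.95 or more put 34 of them in 10 groups and left 11 alone. The group with most members held 15 of them from 11 components, and 4 groups joined different components. In all 15 thinning May replicate 2 was highest and control May replicate 1 next, and in 14 thinning plus shading May replicate 2 followed. These 2 highest libraries held between 78.7% and 97.6% of such a member's May sum. Summed over the 15, the level was 93.0 and 1790 in the thinning plus shading May libraries, 106.9 and 13918 in the thinning May libraries, and 7683 and 131.8 in the control May libraries. In August the sum lay between 23.4 and 56.9. The 15 together were thus very abundant in 2 May libraries, intermediate in 1, and far lower in the remaining 3. That the sum there lay above that of every August library follows from the choice.

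DN3941_c0_g2 had the largest mean log2 difference of all members, 5.74. It was at 1.21 and 424.7 scaled TPM with thinning plus shading in May, 0.542 and 3039.6 with thinning, and 1498 and 12.4 in control trees. Every August library held between 0 and 0.38. Its May values span the widest range of the members, and the lowest lay only just above August. DN3941_c0_g1, of the same component, followed it with r = 0.998 within months and a difference of 5.70. DN7191_c0_g1 was at 12.4 and 296.5 with thinning plus shading in May, 13.4 and 2314 with thinning, and 1385 and 27.1 in control trees, against 1.01 to 9.77 in August. Its component partner DN7191_c0_g2 stood between 8.975 and 1943 in May and between 0.583 and 7.67 in August, so this pair kept a low August level that the DN3941 pair lacked.

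The remaining members of this group were lower but ordered alike. DN27852_c0_g1 and DN27852_c0_g2 reached 485.04 and 484.2 in thinning May replicate 2 and no more than 0.211 in any August library. DN9652_c0_g3 stood at 518.6 and DN1207_c0_g4 at 583 in thinning May replicate 2, and the August libraries of DN1207_c0_g4 were at 0 in 4 of 6 and at 0.026 in the others. DN34964_c0_g1 reached 515 in that library, and DN10486_c0_g1 and DN10486_c0_g2 reached 204 and 321. DN180_c1_g1 differed in its order, with 15.2 and 10.2 in the thinning plus shading May libraries, 15.9 and 265 in the thinning libraries, and 162 and 4.00 in the control libraries. Its August values were 0.96 or less, which gave it a ratio of 4.17 between the lowest May and the highest August library. DN20759_c0_g1 and DN2698_c1_g1, from different clusters, followed each other within months (r = 0.998) and were at 343 and 338 in thinning May replicate 2 against 7.13 to 12.4 in August. In 3 May libraries this pair stood at 12.5 to 16.3, close to its August level.

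Another group joined DN22085_c0_g1, DN3905_c4_g1 and DN3905_c0_g1, whose levels were high in every May library. Between them r within months was 0.994 to 0.997. DN22085_c0_g1, whose May mean of 1120 was the highest of all members, was at 375 and 914 with thinning plus shading, 299.8 and 2648 with thinning, and 2094 and 389 in control trees in May. In August it was at 75.2 and 93.9 with thinning plus shading, 37.6 and 63.5 with thinning, and 100.7 and 149.6 in control trees. The same 3 May libraries stood highest as in the larger group, but the others were still at least 2.00 times the highest August value. DN3905_c4_g1 and DN3905_c0_g1 had May means of 1062 and 587 and August means of 80.01 and 48.4.

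**Figure D3:**
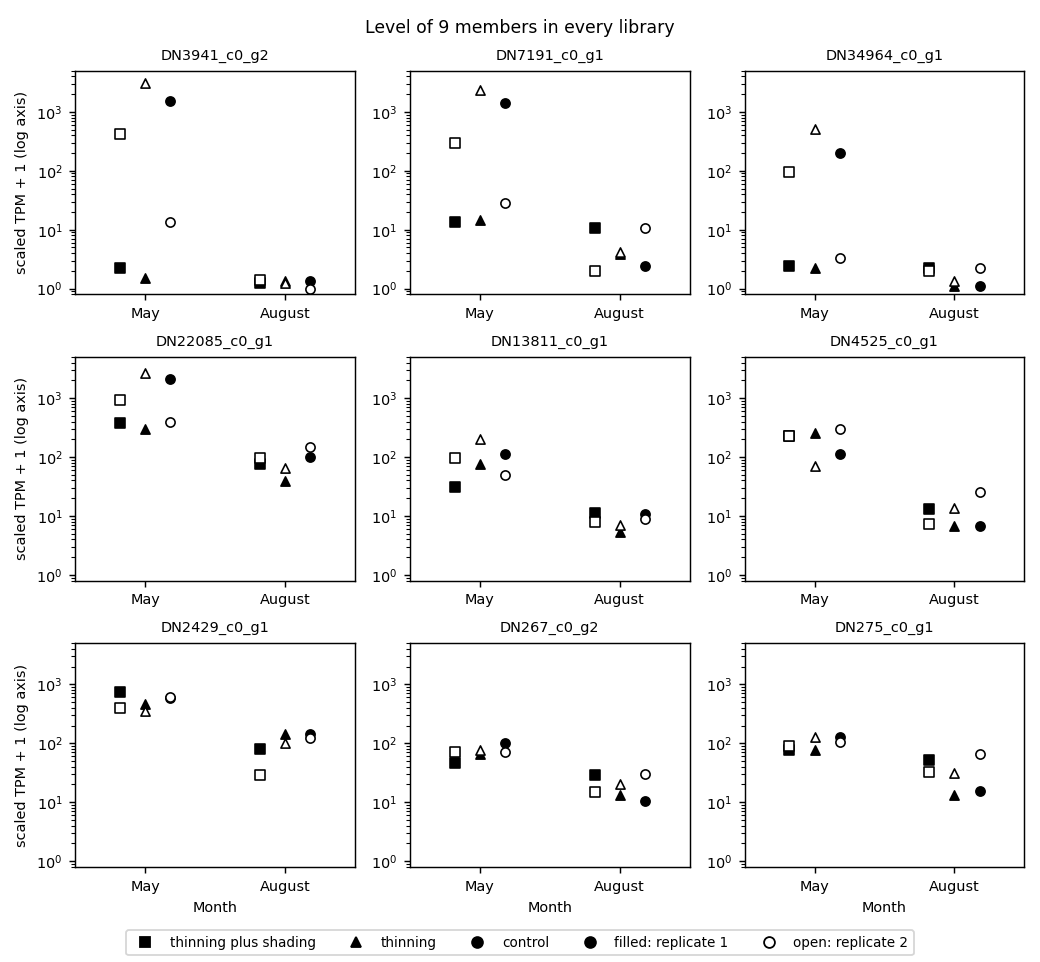
Each panel shows 1 member with scaled TPM + 1 on a log axis in May (left) and August (right), by treatment (squares thinning plus shading, triangles thinning, circles control) and replicate (filled 1, open 2). The May points of DN3941_c0_g2 and DN34964_c0_g1 reach down to the August points, while those of DN4525_c0_g1 and DN2429_c0_g1 stay apart from them.

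DN13811_c0_g1, whose May values of 30.4 and 96.0 with thinning plus shading, 76.2 and 198 with thinning, and 112 and 48.0 in control trees all lay above its August range of 4.41 to 10.2, had the widest log2 gap between the months. Some members ran against the common order. DN4525_c0_g1 was at 222 and 228 with thinning plus shading in May, 255 and 68.5 with thinning, and 111 and 297 in control trees, against 5.67 to 24.1 in August. Thinning May replicate 2, the highest library for most members, was its lowest. DN6080_c0_g2 was at 69.2 and 4.45 with thinning plus shading in May, 203 and 1.90 with thinning, and 6.34 and 15.7 in control trees, and was listed at 0 in 5 August libraries and at 0.923 in thinning August replicate 1. It is the member with the lowest May mean, 50.1. DN1186_c1_g2, at 14.99 to 172 in May and 0 to 5.83 in August, was highest in control May replicate 2. The pair DN14165_c0_g1 and DN14165_c0_g2 peaked in the same library, at 116 and 162.

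At the other end, 10 members had an SD of under 0.5 log2 units over the 6 May libraries. Across the 45 members the May SD had a median of 1.23, against 0.46 over all tested transcripts, and the August SD a median of 0.63, against 0.32. DN286_c0_g1 had the smallest May SD, 0.33, with 55.9 and 61.4 in thinning plus shading, 52.2 and 100.9 in thinning, and 64.95 and 59.5 in control trees in May. DN275_c0_g1 was at 77.3 and 90.3, 74.8 and 125, and 129 and 103 in the same treatments, and its August values ran from 12.3 to 63.9. It stood at 0.953 to 1.06 times the level of its component partner DN275_c0_g4 in the May libraries. DN267_c0_g2 stood at 45.3 to 102 in May and 9.33 to 28.9 in August, and DN2035_c0_g2 at 35.5 to 67.7 and 9.93 to 18.8. DN2429_c0_g1 was the most abundant of these 10 members. It was at 740 and 398.5 with thinning plus shading in May, 458 and 357 with thinning, and 588 and 597 in control trees. Its partner DN2429_c0_g2 was at 277 to 939 in May and 29.3 to 181 in August. In August DN2429_c0_g1 was at 78.5 and 27.8, 143 and 99.5, and 144 and 123 in the same order of treatments. The 10 members had log2 differences of 1.68 to 2.47, in the lower part of the range of all members. They were chosen here by their May SD alone, and most of them varied more in August. DN275_c0_g1 had an SD of 0.91 in August against 0.33 in May, while DN2035_c0_g2 had 0.33 against 0.38.

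The May spread and the difference between the months both come from the values that chose the members, and the demand that no May library overlap August leaves a wide May spread possible only with a large difference. Their Spearman correlation of 0.84 across the 45 members, which also share libraries and scaling, is therefore in part built in and is given as a description. The group of 15 had May SDs of 1.89 to 4.83 and differences of 2.13 to 5.74, and DN20759_c0_g1 and DN2698_c1_g1 combined a May SD above 2 with differences of 2.17 and 2.13. DN4525_c0_g1 combined a May SD of 0.82 with a difference of 4.05.

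**Figure D4:**
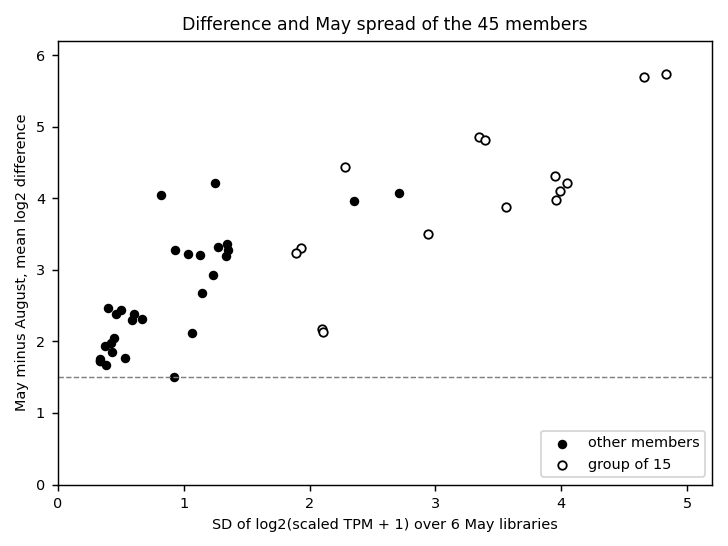
Each point is 1 of the 45 members, with the SD of log2(scaled TPM + 1) over the 6 May libraries on the x axis and the mean log2 difference, May minus August, on the y axis; open points are the group of 15, and the dashed line marks the fold required by the choice, 1.5. The open points lie at a May SD of 1.89 or more, and most filled points lie to their left and lower.

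The edges of the choice were as follows. DN1495_c0_g1 and DN2035_c0_g2 passed the fold narrowest, at 1.51 and 1.68, and DN1064_c0_g1 (1.49) and DN1495_c0_g2 (1.48) just missed it. DN1495_c0_g2 shares its component with the member DN1495_c0_g1. On the May mean, DN6080_c0_g2 (50.1) and DN2035_c0_g2 (50.7) lay inside, and DN997_c0_g4 (49.9) and DN26378_c0_g1 (49.1) outside. For the separation of the months, DN34964_c0_g1 and DN2698_c1_g1 had ratios of lowest May to highest August of 1.001 and 1.01, and the transcripts DN6014_c0_g2 and DN438_c0_g1 missed it at 0.972 and 0.968. The upper limit on the mean kept no transcript out that met the rest, and the highest mean inside was 603 for DN22085_c0_g1. In all, 159 transcripts missed only the separation, 218 only the May mean and 135 only the fold.

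Other transcripts of the same components were described as well. In 12 of the 35 components there were 23 further tested transcripts that are no members, and all 23 had a higher mean log2 level in May, against 53.7% of tested transcripts; 16 of them reached the fold of 1.5. Of the 23, 17 had fewer than 2 August libraries at 10 or more and so passed the filter only through May, which largely fixed their direction. The other 6 had differences of 0.08 to 1.48. Reads may also be shared with the members, so the partners are no independent observation. DN1207_c0_g1, DN1207_c0_g2 and DN1207_c0_g5 were at 156, 156 and 146 on average in May and at 0.114, 0.0348 and 0.0563 in August, and in each of them 1 May library lay under the highest August value. DN6080_c0_g1 was, like its partner that is a member, highest in thinning May replicate 1 (255.8) and thinning plus shading May replicate 1 (82.5), and was listed at 0 in thinning May replicate 2. Partners at the same level in both months also occurred: DN1186_c1_g1 and DN1186_c1_g3 had log2 differences of 0.08 and 0.09. With values summed per component, 32 of the 35 components of the members met the same criteria; DN1692_c0, DN180_c0 and DN9652_c0 did not.

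Treatments within a month were not used to choose the members, and could be tested. For August the test says little about many members. In August 17 of the 45 had fewer than 2 libraries at 10 or more, and 11 averaged under 1. At such levels log2 values after adding 1 can hardly differ between treatments. The August counts and those of the change between months include these members. In no treatment comparison was any of the 45 called by limma at an adjusted p under 0.05. The comparisons were, in this order, thinning plus shading against control, thinning against control, and thinning plus shading against thinning. In May they called 0%, 0% and 0.0101% of all tested transcripts at the adjusted threshold. At an unadjusted p under 0.05 there were 0, 2 and 0 members (0%, 4.44% and 0%), against 4.87%, 8.51% and 8.04% of tested transcripts. In August they called 0.188%, 0.892% and 0% of tested transcripts, and at an unadjusted p under 0.05 there were 6, 4 and 3 members (13.3%, 8.89% and 6.67%), against 11.7%, 10.8% and 4.58%. As the mean of both months they called 0.0152%, 0% and 0%, and 4, 3 and 0 members (8.89%, 6.67% and 0%) had an unadjusted p under 0.05, against 12.6%, 10.8% and 4.14%. The change of each treatment effect between May and August, which asks whether the May to August difference depended on treatment, was called in 0% of tested transcripts for each pair. There 1, 3 and 4 members (2.22%, 6.67% and 8.89%) had an unadjusted p under 0.05, against 5.01%, 8.96% and 8.64%. The choice asked for May above August in every library of each treatment and so limits this change, which makes these counts a description. The members' shares were thus near or below those of the whole table in most comparisons. The 95% confidence interval of a treatment difference within 1 month reached a median of 1.99 log2 units to either side over the members, against 0.866 over all tested transcripts. For members of wide spread only very large differences could therefore have been called. The fit takes 1 residual spread per transcript from both months, so the interval is equally wide in May and August. The members' SD over the libraries of a month had a median of 1.23 in May and 0.63 in August. August intervals and p-values thus carry the wider May spread. Steadier members had narrower intervals, such as DN286_c0_g1 with an SE of 0.302 within 1 month.

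In May the median log2 difference over the members was -0.63 for thinning plus shading minus control, -0.05 for thinning minus control and -0.61 for thinning plus shading minus thinning, against -0.10, -0.09 and 0.01 over all tested transcripts. In August these medians were -0.11, -0.24 and 0.09, against 0, -0.02 and 0.04. The difference between the months of thinning plus shading minus thinning had a median of -1.32 over the members, against -0.03 over all tested transcripts. It was above 0 in 12 of the 45 (26.7%), against 48.5% of tested transcripts. The members are not independent here: the group of 15 summed to 106.9 in thinning May replicate 1 and 13918 in thinning May replicate 2. This median is a description. In May the groups overlapped in nearly all members: both thinning plus shading libraries lay above both control libraries in 0 members and below them in 3, against 14.6% and 23.2% of tested transcripts. Both thinning libraries lay above both control libraries in 2 members and below them in 3, against 7.48% and 18.2%. In August thinning plus shading lay above control in 3 and below it in 13 members, against 24.6% and 26.7%, and thinning lay above control in 0 and below it in 17, against 21.8% and 25.8%. Thinning plus shading lay above thinning in 2 and below it in 5 members in May, against 18.9% and 11.8%. The August counts were 13 and 6, against 21.4% and 18.8%. Comparisons of a month share libraries, those with control the control libraries, and members that follow each other are not independent. Some August counts rest on values near 0: DN27852_c0_g1 was at 0.047 and 0.043 with thinning and 0.101 and 0.123 in control trees.

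The smallest treatment p-values belonged to DN4999_c0_g1 and DN1186_c0_g1, whose mean was highest in control trees in both months and which followed each other (r = 0.994 within months). DN4999_c0_g1 was at 141 and 481 with thinning plus shading in May, 129.5 and 119 with thinning, and 358 and 1066 in control trees. In August it was at 13.5 and 8.88, 19.9 and 13.6, and 80.1 and 117 in the same order. The thinning libraries lay below the control libraries in each month, and the thinning plus shading libraries did so in August but overlapped control in May. As the mean of both months its log2 difference was -2.40 for thinning minus control (SE 0.45, limma adjusted p = 0.16) and -2.14 for thinning plus shading minus control (SE 0.45, limma adjusted p = 0.14). DN1186_c0_g1 was at 153 and 524 with thinning plus shading in May, 141 and 141 with thinning, and 385 and 1109 in control trees, and at 20.3 and 16.7, 27.5 and 24.9, and 95.2 and 132 in August. Its log2 difference was -2.13 for thinning minus control (SE 0.43, limma adjusted p = 0.17). Fitted on the August libraries alone, DN1186_c0_g1 passed in both comparisons with control, at -2.54 for thinning plus shading (limma adjusted p = 0.035) and -2.06 for thinning (0.036), where that fit called 0.907% and 1.43% of all tested transcripts.

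In August DN286_c0_g1 was at 14.5 and 12.1 with thinning plus shading, 17.8 and 14.3 with thinning, and 28.05 and 34.5 in control trees, with a log2 difference of -1.17 for thinning plus shading minus control (SE 0.30, limma adjusted p = 0.16). The August groups did not overlap with control, while the May groups did. The call was made when either thinning May replicate 1 or thinning May replicate 2 was left out (limma adjusted p = 0.034 and 0.037) from the shared estimate of the spread, where 1.55% and 1.41% of all tested transcripts were called. The difference between the months of thinning minus control was also called for it without thinning May replicate 1 (limma adjusted p = 0.040), as in 2.95% of tested transcripts. DN4144_c0_g1, which followed it within months (r = 0.964), was at 13.6 and 9.41, 18.7 and 12.85, and 23.6 and 28.2 in August. In all, 11 of the 45 members had both control August libraries above the other 4 August libraries, against 15.5% of tested transcripts. DN27852_c0_g1 and DN27852_c0_g2 are among them, at no more than 0.211 in any August library. Between the thinned trees in August, DN28277_c0_g1 was at 100.5 and 46.6 with thinning plus shading and 18.8 and 25.7 with thinning. Its log2 difference was 1.59 (SE 0.44, limma adjusted p = 0.84).

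**Figure D5:**
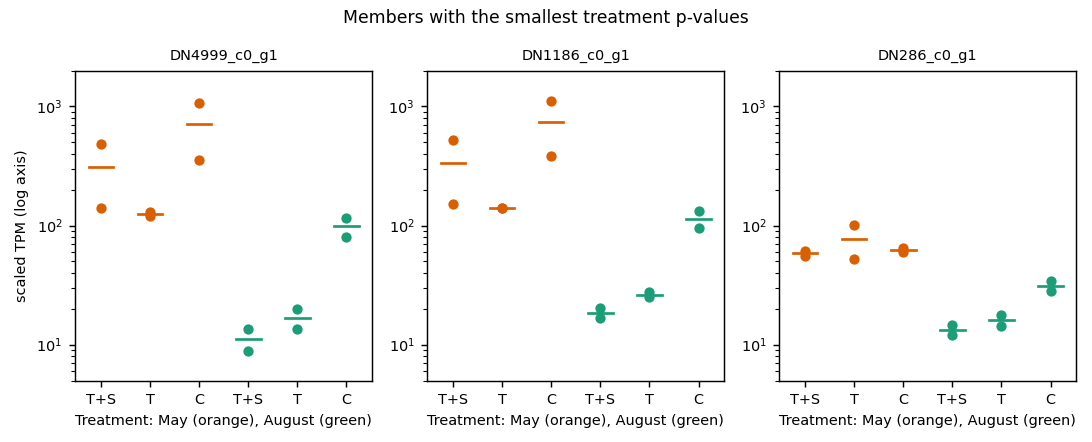
Scaled TPM on a log axis of the 3 members with the smallest treatment p-values, by treatment (T+S thinning plus shading, T thinning, C control) in May (orange) and August (green); points are the 2 libraries of a group and bars their mean. In August both control points of each transcript lie above the 4 other green points, while in May the points of DN286_c0_g1 overlap between treatments.

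The level of the whole table bears on how many transcripts meet the choice. The library factor was 1.11 ± 0.0564 in May and 0.901 ± 0.0312 in August (SD, n = 6 libraries each), and without it the median log2 difference of all tested transcripts moved to -0.23, against 0.05 as deposited. All 45 members were still higher in May on average without the factor, the smallest log2 difference being 1.21, and 27 of them still met every criterion. Of the 18 that did not, 13 had overlapping months, 6 fell short of the fold and 3 of the May mean. After quantile normalization 33 members did, and all 45 were again higher in May. With a fold of at least 1.5 asked for, this direction was largely fixed by the choice under both scalings.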

How the data were processed

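RNA of fir needles was sequenced in 12 libraries, and groups and replicate numbers were read from the sample titles. The labels' extraction text speaks of maritime pine roots, whereas the tissue and organism labels say fir needles, which was followed here. Per the submitters' processing notes, Trimmomatic, RSEM and DESeq2 were used; their roles and settings were not stated in the labels. The authors deposited a signal per transcript. Divided by 1 factor per library, so that each column sums to 1000000, at least 99.3% of its nonzero values come within 0.1 of a step from whole steps of 0.01, the form of TPM written with 2 decimals. Depth is unknown, so no counting interval is given.

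The fit used limma 3.58.1 (R 4.3.3) with a pseudocount of 1, 6 group means, a mean-variance trend, and Benjamini-Hochberg adjustment over 19726 transcripts with 10 or more in at least 2 libraries. It was tested on simulated data. The members, lists and naming rule were chosen with earlier results of these data known. Named transcripts are those of extreme difference, level, spread, gap or treatment p, those of components with most members and those at the thresholds; DN4144_c0_g1, DN28277_c0_g1, DN14165_c0_g1, DN14165_c0_g2, DN1186_c1_g2, DN20759_c0_g1, DN10486_c0_g1, DN10486_c0_g2 and the component partners were chosen after their values were seen. Alternatives were other pseudocounts, filters, scalings, a replicate block, fits of 1 month and leaving out each library.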

Additional observations from a re-analysis of the deposited data

Results flagged for a closer look

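In 5 cases 1 library of a month stood far from the other 5 of that month on the log2 scale, by Dixon's criterion at 95%, out of 56 sets of 6 libraries examined for 27 named members and their summed share; chance gives about 1 in 20 such sets. DN286_c0_g1 was at 100.9 scaled TPM in thinning May replicate 2, where the next May library was at 64.95. DN2429_c0_g1 and DN2429_c0_g2, of 1 component, were at 27.8 and 29.3 in thinning plus shading August replicate 2, and the next August library was at 78.5 and 99.7. DN3941_c0_g2 was listed at 0 in control August replicate 2 and at 0.231 or more in the other August libraries, a difference at the bottom of the scale. DN6080_c0_g2 was at 0.923 in thinning August replicate 1 and listed at 0 in the other 5 August libraries, where any value above 0 would have been flagged.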

How the results depend on the processing

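The number of members depended on scaling, thresholds and single libraries. It was 27 without the library factor, 84 and 36 with a fold threshold of 1 and 2 log2 units, 78 and 25 with a May mean of 25 and 100, and 35 after quantile normalization. Leaving out 1 library gave between 44 and 89, with 89 (38 of them among the 45) without thinning May replicate 2, 74 without thinning plus shading May replicate 1, 71 without thinning May replicate 1 and 70 without control August replicate 2, a criterion over fewer libraries being easier to meet. Of 540 recomputed May minus August differences of 27 named members none changed sign, which the choice largely fixed in advance. Of these differences 3 moved by more than their spread, all with a pseudocount of 8. The count of called members stayed at 0 in every treatment comparison and alternative run, except for 1 in August for thinning plus shading minus control and 1 for thinning minus control when only August libraries were fitted (DN1186_c0_g1; 179 and 282 of all tested transcripts called), and 1 (DN286_c0_g1) for thinning plus shading minus control in August when thinning May replicate 1 or thinning May replicate 2 was left out, and for the difference between the months of thinning minus control without thinning May replicate 1, so that leaving out 1 library gave 0 to 1. In those fits 306 and 279 transcripts were called in August, against 37 with all libraries, and 582, against 0, for the difference between the months, so the calls grew over the whole table. The replicate numbers are not said to mark shared trees, and deviations of equal numbers correlated between groups from -0.71 to 0.63; with a replicate block 0 members were called in each comparison (over all tested transcripts 8 against 37 in August for thinning plus shading minus control, and 9 against 176 for thinning minus control), and with the control May numbers exchanged, an alternative chosen after seeing the data, 0 were called in May. Summing per component was also chosen after seeing the data and gave 52 components. The unknown depth limits what can be said of levels under 1.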
